A study of Homo sapiens with 6 samples.

Results

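The 46 genes described here encode proteins that copy DNA in S phase or carry a cell through G2 and mitosis, and they were taken by symbol from the 16760 genes with values in each library. Of them, 25 were grouped as S phase genes and 21 as G2/M genes. Their RNA was measured in H1975 cells, a human lung adenocarcinoma line, in 3 libraries labelled YTHDC2 knockout and 3 libraries labelled WT, with no treatment given for either genotype. YTHDC2 is an RNA helicase that reads N6-methyladenosine. The knockout was made with CRISPR plasmids, and whether the cells were 1 clone or a pool is not given in the sources used here. The study speaks of biological replicates in the legend that covers its RNA-seq panels, but neither it nor the labels say whether these were separate cultures, so that p-values measure the spread between these libraries.

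The genome is copied in an ordered series of steps. In G1, the origin recognition complex with CDC6 and CDT1 loads the MCM2-7 helicase on DNA, and in S phase CDC45, the GINS complex and MCM10 turn that helicase on. Polymerases held by the PCNA clamp then extend the new strands from nucleotides supplied by ribonucleotide reductase and thymidylate synthase. Many of these genes are transcribed late in G1 by E2F factors. The genes of the second group are made mostly in G2, when B-type cyclins with CDK1, Polo-like and Aurora kinases, kinesin motors and the spindle checkpoint condense, align and separate the chromosomes. Their promoters are controlled by the DREAM complex, MYBL2 and FOXM1 through an element called CHR, often with CCAAT boxes beside it. In dividing cancer cell lines, both groups are among the actively expressed genes.

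The targeted transcript was still detected in the knockout libraries, at 7.82, 8.92 and 8.14 FPKM (fragments scaled to transcript length and library depth), against 13.0, 17.1 and 201 FPKM in WT replicates 1 to 3. WT replicate 3 therefore stood apart for YTHDC2, whose log2 fold change was -2.09 (SE 1.17, limma adjusted p = 0.228) with it and -0.84 without it (limma, adjusted p = 0.00223). Among the 46 genes, WT replicate 3 had the highest WT value for 9 and the lowest for 15. Recovered depth was 32131238 to 33823371 fragments in knockout and 27200187 to 30336116 in WT libraries, and every one of the 46 genes had between 398 and 30011 fragments in each library. Of 12 lung epithelial markers, 6 averaged below 1 FPKM or had no value, among them EPCAM at 0.532 FPKM, whereas KRT8 and KRT18 averaged 90.1 and 67.0 FPKM. CDH1 (2.17 FPKM), EGFR (2.04 FPKM), NKX2-1 (1.56 FPKM) and NAPSA (1.24 FPKM) were below the median of all genes tested, 4.84 FPKM. Most of this list was thus low or absent in these cells, which the study names as H1975. The identity of the cells was not tested. Of 8 markers of mesenchymal, blood and endothelial cells, 4 averaged below 1 FPKM or had no value, with PTPRC at 0.000769 FPKM and PECAM1 at 0.00436 FPKM, and VIM (489 FPKM), ACTA2 (15.1 FPKM), COL1A1 (6.12 FPKM) and CD68 (1.72 FPKM) were above it. Some markers differed by genotype, with log2 fold changes of -1.41 for EPCAM, -3.28 for KRT19, -1.68 for ACTA2 and -2.20 for COL1A2 (limma adjusted p of 6.79e-04 or less), and the part of such differences in the results was not tested.

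Many of the promoters searched carried the motif by which their group is known, but not all did. Sequences of 300 bases, from 250 before to 50 after the start site, were read from RefSeq on GRCh38.p14 for 22 S phase and 16 G2/M genes, that is for all but CCNE2, MCM4, MCM5, TPX2, FOXM1, UBE2C, BIRC5 and AURKA. An E2F motif (TTTGGCGC, TTTCCCGC, TTTCGCGC or TTTGCCGC, either strand) lay in 13 of the 22 S phase promoters (59.1%) and in 1 of the 16 G2/M promoters (6.25%), against 3.31% of 35116 promoters. The CHR motif (TTTGAA, either strand) lay in 1 S phase promoter (4.55%) and 9 G2/M promoters (56.2%), against 15.2% of all. CCAAT, searched the same way, lay in 14 S phase (63.6%) and 13 G2/M promoters (81.2%), against 34.6% of all. The 4 E2F windows below belong to genes that differed in opposite directions between the genotypes. CDT1 and GINS2, which were higher in knockout cells, are shown first, and PCNA and POLA1, which were lower, follow. Each window is 28 bases, 5′ to 3′ on the strand of the gene, with the motif or its reverse complement in capitals.
CDT1, chr16:88803744-88803771, plus strand: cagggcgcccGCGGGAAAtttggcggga
GINS2, chr16:85688968-85688995, minus strand: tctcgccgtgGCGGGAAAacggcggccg
PCNA, chr20:5126664-5126691, minus strand: agcgtcagggGCGGGAAAaggcgtgcgt
POLA1, chrX:24693771-24693798, plus strand: tcatcacaggGCGCCAAAcgcgcgtccg

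The CHR windows below are of PLK1, which was higher in knockout cells, and of CDK1, MKI67 and KIF11, which were lower, printed in the same way.
PLK1, chr16:23678849-23678876, plus strand: ccagcgccgcgTTTGAAttcggggagga
CDK1, chr10:60778159-60778186, plus strand: agtataataaaTTTGAActgtgccaatg
MKI67, chr10:128126436-128126463, minus strand: cttcgttttcgTTTGAAttgggcgggcg
KIF11, chr10:92593091-92593118, plus strand: tctgtctctttTTCAAAttgaggcgccg
The same motif thus stood in promoters of genes with opposite changes. Of the genes with a promoter sequence, the E2F motif was found in 6 of 14 whose transcript was lower in knockout cells and in 4 of 8 whose transcript was higher, and the CHR motif in 5 of 14 and 1 of 8. Of the 16 that did not pass, 4 had the E2F motif and 4 the CHR motif. These counts pool S phase and G2/M genes, which differ in both motifs, so they depend on the mix of phases. A match is a description of the letters and does not show binding.

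All 46 genes were detected in each library of both genotypes, and most were well expressed. S phase genes averaged 4.10 to 288 FPKM over the 6 libraries (median 62.9 FPKM) and G2/M genes 3.17 to 136 FPKM (median 42.5 FPKM), and 44 of the 46 were above the median of all genes tested, 4.84 FPKM. MCM7, a subunit of the helicase, had the highest level among S phase genes, and CCNE2, a cyclin of the G1/S transition, the lowest. Among G2/M genes the lowest was CENPE, a kinetochore motor.

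**Figure D1:**
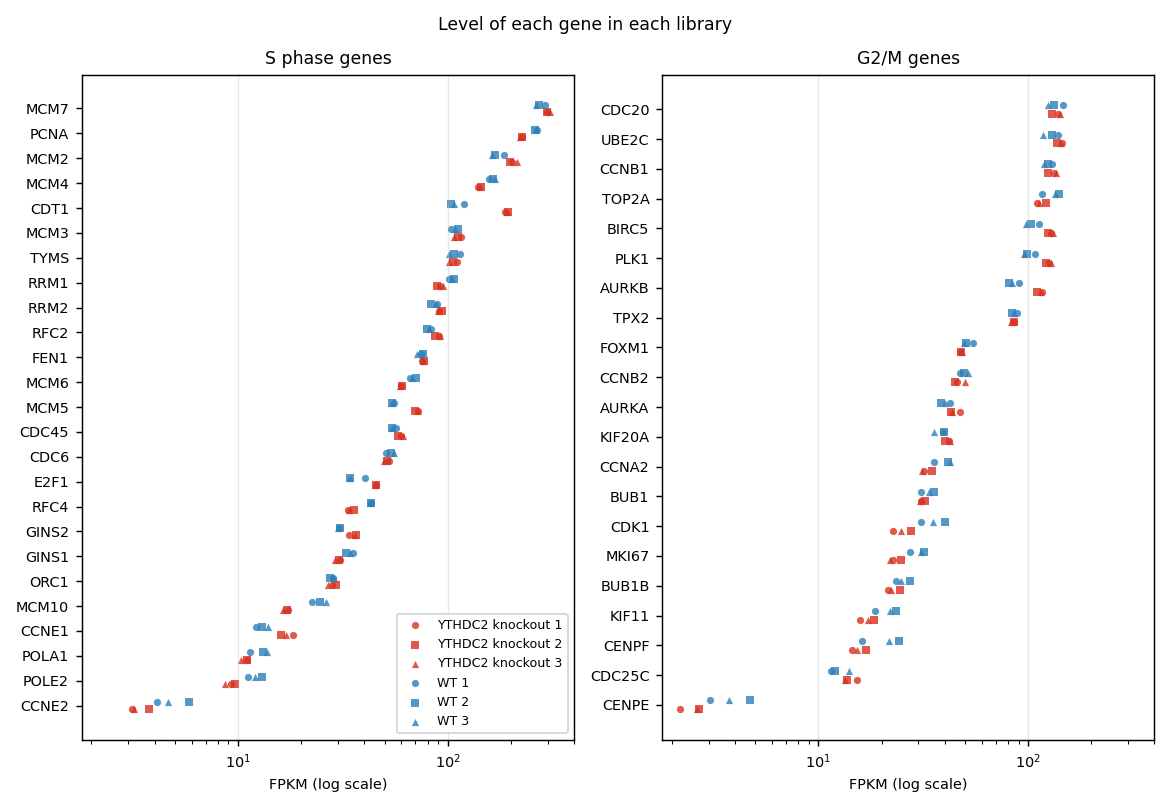
Level of each of the 46 genes in FPKM (log axis) in the 3 YTHDC2 knockout (red) and 3 WT (blue) libraries, with 1 point per library whose shape gives the replicate, and S phase and G2/M genes in separate panels. For most genes the genotypes lie close together compared with the spread of levels between genes, whose means run from 3.17 to 288 FPKM.

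With FPKM as deposited, neither group moved as a whole between the genotypes, and within both of them some genes were higher and others lower in YTHDC2 knockout cells. The 15441 genes with enough signal were tested by limma on log2(FPKM + 0.1) and p-values were adjusted over all of them (Benjamini-Hochberg). A gene passed at an adjusted p under 0.05, and all 46 genes were tested. Of the 25 S phase genes, 10 passed as lower (40%), 7 passed as higher (28%) and 8 did not pass, where 26.2% of all genes passed as lower and 16.6% as higher. Of the 21 G2/M genes, 6 passed as lower (28.6%), 3 as higher (14.3%) and 12 did not pass. The median log2 fold change (knockout over WT) was -0.01 for S phase genes and -0.08 for G2/M genes, against -0.09 for all genes tested. The differences were small. At an absolute log2 fold change above 1 together with the adjusted p, 0 of the 46 genes were called (limma), where 2.72% of all genes were, and 0 exceeded that fold at an unadjusted p under 0.05 or with limma voom on the recovered fragments. The shares of genes that passed were larger among well expressed genes. When a mean of at least 1 FPKM was required, 34.2% of all genes passed as lower and 23.0% as higher. With that filter 40% of S phase genes passed as lower and 32% as higher, and 33.3% and 14.3% of G2/M genes. In bulk RNA, fewer cells in a phase and less of a transcript per cell cannot be told apart.

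**Figure D2:**
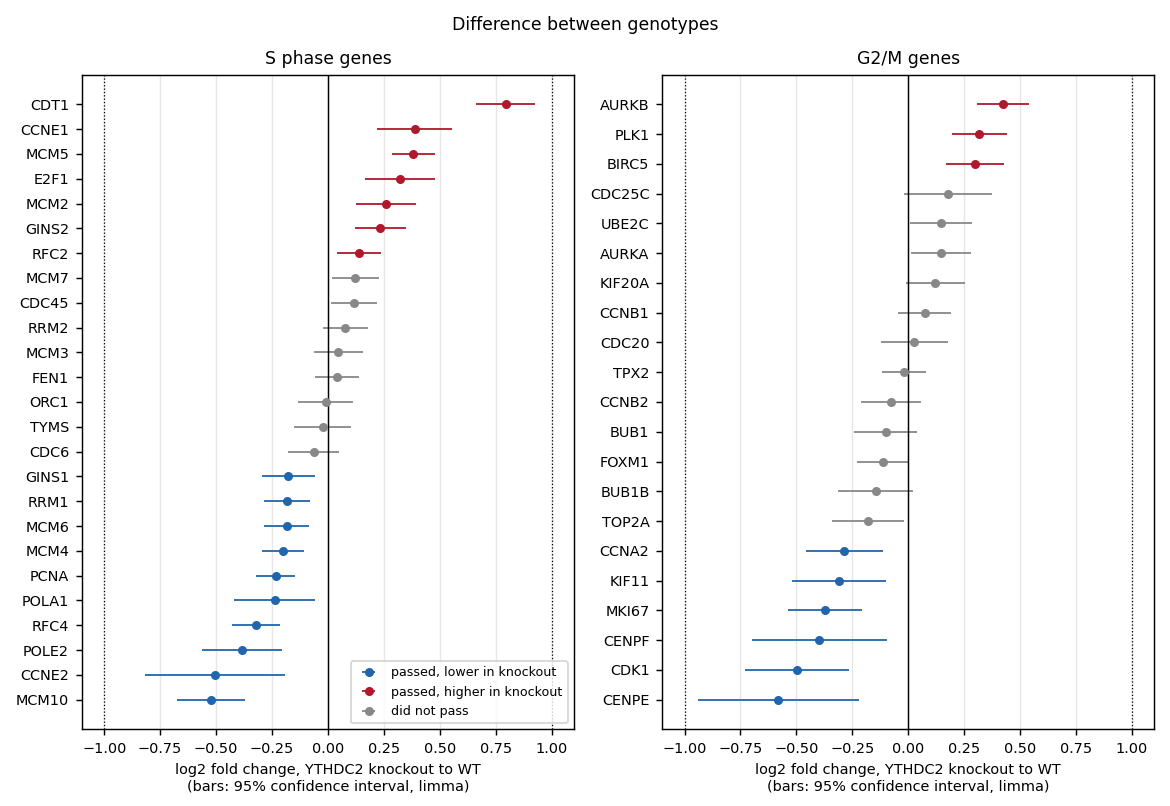
Log2 fold change (knockout to WT) of each of the 46 genes with its 95% confidence interval from limma, ordered by size within the S phase and G2/M panels and coloured by whether the gene passed as lower, passed as higher or did not pass, with dotted lines at the fold threshold. Values run from -0.58 for CENPE to 0.80 for CDT1, and both directions are seen in each panel.

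In 31 of the 46 genes (67.4%) the 3 knockout values did not overlap the 3 WT values, where 53.8% of all genes tested were so separated. These were 20 of the 25 S phase genes and 11 of the 21 G2/M genes. The share over all genes includes genes of low level, and the share among well expressed genes alone is not given here. Of the 26 genes that passed, 17 also passed in each of the 6 fits that left out a library. The other 9 were GINS1, RFC2, POLA1, RRM1, CCNE2, CCNA2, CENPE, CENPF and KIF11, with limma adjusted p of up to 0.13 in such a fit. The share of all passed genes that were kept in every such fit is not given here. Over all genes tested, 19.6% to 28.8% passed as lower in these fits and 12.8% to 18.0% as higher. The count of G2/M genes that passed as lower changed with the library left out, in fits that also had fewer libraries. It was 2 without knockout replicate 1 or WT replicate 2 (20.0% and 20.4% of all genes passed as lower in those fits), and 3 without knockout replicate 3 or WT replicate 3 (19.6% and 21.3%). It was 6 without knockout replicate 2 (22.8%) and 8 without WT replicate 1 (28.8%). Without WT replicate 1, 5 G2/M genes passed as higher, as did 18.0% of all genes. The lower G2/M count was also 3 when limma was run without trend and robust moderation, where 23.6% of all genes passed as lower.

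The direction of a gene went with the GC content of its transcript. The genes that passed as lower had transcripts of 35.3% to 48.5% GC (median 43.0%), and those that passed as higher had 49.1% to 64.9% GC (median 56.1%), so that these ranges did not overlap. Across genes, which are not independent replicates and share libraries, Spearman's rho of log2 fold change and GC content was 0.85 for the 25 S phase genes and 0.74 for the 21 G2/M genes, against 0.47 over 15325 genes with a GC value. Below 45% GC, 12 of 17 members passed, each of them as lower, where 44.5% of all such genes passed as lower and 3.32% as higher. At 50% GC or more, 9 of 17 members passed, each of them as higher, where 12.1% of all such genes passed as lower and 28.3% as higher. Of the 12 members in between, 4 passed as lower and 1 as higher, near the shares of all such genes (30.6% and 9.77%). These backgrounds hold genes of all levels, whereas 44 of the 46 members were above the median level of all genes tested. Whether the relation is stronger in these members than in other genes of like level was not tested. Whether it comes from the libraries or from the cells was not tested either.

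When a smooth curve of log2 level on GC content was subtracted from each library, most of the lower calls were no longer made. In that fit 1 S phase gene passed as lower and 9 as higher, and 1 G2/M gene passed as lower and 11 as higher, where 16.2% of all genes passed as lower and 20.9% as higher. Of the 16 genes that had passed as lower, MCM10 and MKI67 still passed as lower, and 6 had a fold change of the opposite sign. Of the 10 that had passed as higher, 9 still passed, and E2F1, at 0.14 on the log2 scale, did not (limma adjusted p = 0.074). Of the 20 genes that had not passed, 11 now did, all with a positive fold change. The correction did not remove the relation to GC content among these genes. Spearman's rho of the corrected log2 fold change and GC content was 0.55 for S phase and 0.32 for G2/M genes.

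Among the origin licensing genes, the one clear difference was in CDT1, which brings the MCM helicase to origins and is destroyed once S phase begins. CDT1 was at 186.5, 193.6 and 190.5 FPKM in knockout libraries and at 119.7, 103.1 and 106.5 FPKM in WT libraries, so that every knockout library was well above every WT library. The means were 190.2 ± 3.55 and 109.8 ± 8.79 FPKM (SD, n = 3 each), a log2 fold change of 0.80 (SE 0.06, 95% interval 0.66 to 0.93, limma adjusted p = 3.83e-05). After GC correction the log2 fold change of CDT1 was 0.56 (limma adjusted p = 5.26e-05), and CDT1 had the highest GC content of the 46 genes, 64.9%. ORC1, the largest subunit of the origin recognition complex, and CDC6, which joins it, did not pass. ORC1 was at 26.8 to 29.5 FPKM in knockout and 27.6 to 28.7 FPKM in WT libraries, with a log2 fold change of -0.01 (SE 0.05, limma adjusted p = 0.895). The log2 fold change of CDC6 was -0.06 (limma adjusted p = 0.348) and became 0.14 (limma adjusted p = 0.0247) after GC correction.

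The 6 subunits of the MCM2-7 helicase, which form 1 ring, did not move together. MCM2 and MCM5 rose, MCM4 and MCM6 fell, and MCM3 and MCM7 did not pass. MCM5 was at 72.2, 69.6 and 71.7 FPKM in knockout libraries and at 55.5, 54.1 and 54.3 FPKM in WT libraries, with no overlap, a log2 fold change of 0.38 (SE 0.04, limma adjusted p = 2.37e-04). MCM2 was at 202.0, 198.3 and 214.3 FPKM against 186.2, 167.0 and 161.6 FPKM, a log2 fold change of 0.26 (SE 0.06, limma adjusted p = 0.00754). Both kept their call after GC correction, at log2 fold changes of 0.34 (MCM5) and 0.18 (MCM2). MCM4 was at 139.7, 144.0 and 141.8 FPKM in knockout libraries and at 157.4, 164.3 and 167.6 FPKM in WT libraries, again without overlap, a log2 fold change of -0.20 (SE 0.04, limma adjusted p = 0.00469). MCM6 fell by 0.19 on the log2 scale (limma adjusted p = 0.00928), from 68.0 ± 2.19 to 59.8 ± 0.409 FPKM (SD, n = 3 each). Neither fall was kept after GC correction, where the log2 fold changes were -0.07 for MCM4 (limma adjusted p = 0.225) and 0.08 for MCM6 (limma adjusted p = 0.183). The subunit with the smallest change was MCM3, at 107.2 to 115.9 FPKM in knockout and 103.8 to 111.4 FPKM in WT libraries (log2 fold change 0.05, SE 0.05, limma adjusted p = 0.474). Within a library, the most abundant subunit was 4.84 to 5.24 times the least abundant, and this range of knockout libraries, 4.91 to 5.14, lay within that of WT libraries.

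Of the factors that turn the helicase on, MCM10, a scaffold of the active replication fork, showed the largest difference. It was at 17.29, 17.04 and 16.44 FPKM in knockout libraries and at 22.4, 24.7 and 26.2 FPKM in WT libraries, so that no knockout library reached the lowest WT library. Its log2 fold change was -0.52 (SE 0.07, limma adjusted p = 4.45e-04), and -0.26 (limma adjusted p = 0.0032) after GC correction. The GINS subunits, which are present in equal number in their complex, moved in opposite directions. GINS2 rose from 30.2 ± 0.306 to 35.5 ± 1.40 FPKM (SD, n = 3 each), a log2 fold change of 0.23 (SE 0.05, limma adjusted p = 0.00528). GINS1 fell by 0.18 on the log2 scale (limma adjusted p = 0.0226). After GC correction GINS2 was at 0.35 (limma adjusted p = 7.38e-04) and GINS1 at 0.13, above 0 (limma adjusted p = 0.196). CDC45, the partner of both in the active helicase, had the smallest difference of these factors and did not pass, at 57.7 to 60.8 FPKM in knockout and 53.9 to 56.3 FPKM in WT libraries (log2 fold change 0.11, SE 0.05, limma adjusted p = 0.0708), and passed at 0.18 with GC correction (limma adjusted p = 0.0141).

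Most genes of the clamp, its loader and the polymerases were lower in knockout cells. PCNA, the ring that holds polymerases on DNA, was at 226.9, 225.4 and 220.0 FPKM in knockout libraries and at 267.1, 260.2 and 263.5 FPKM in WT libraries, with a gap between the genotypes wider than the spread within either. Its log2 fold change was -0.23 (SE 0.04, limma adjusted p = 0.00131). POLE2, a subunit of the leading strand polymerase, had the largest change, at 9.30, 9.66 and 8.64 FPKM against 11.1, 13.0 and 12.1 FPKM (log2 fold change -0.38, SE 0.08, limma adjusted p = 0.0043). RFC4, of the clamp loader, fell by 0.32 (limma adjusted p = 8.99e-04), and POLA1, the catalytic subunit of the polymerase that primes synthesis, fell by 0.24 (limma adjusted p = 0.0387), both on the log2 scale. After GC correction none of these 4 passed, with log2 fold changes of -0.02 for PCNA, -0.13 for POLE2, -0.11 for RFC4 and 0.04 for POLA1. RFC2, another loader subunit, went the other way and rose by 0.14 (limma adjusted p = 0.0316). FEN1, the nuclease that trims Okazaki fragments, had the smallest change, at 75.5, 76.8 and 76.4 FPKM against 74.8, 75.8 and 71.5 FPKM (log2 fold change 0.04, SE 0.04, limma adjusted p = 0.48). FEN1, like RRM2 and BUB1B, shares exon bases with a gene on the same strand, so that its fragments may be split, and 13 of the 46 genes share some with a gene on the opposite strand.

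Of the genes for nucleotide supply, RRM1, the large subunit of ribonucleotide reductase, fell and the other two did not pass. RRM1 was at 91.6, 88.8 and 95.3 FPKM in knockout libraries and at 101.1, 107.1 and 104.7 FPKM in WT libraries, without overlap, a log2 fold change of -0.18 (SE 0.05, limma adjusted p = 0.0116), which was 0.09 (limma adjusted p = 0.238) after GC correction. RRM2, the small subunit, differed by 0.08 on the log2 scale (limma adjusted p = 0.194), and by 0.28 (limma adjusted p = 0.00223) after GC correction. TYMS, thymidylate synthase, was nearly level, at 100.8 to 110.8 FPKM in knockout and 101.5 to 114.3 FPKM in WT libraries (log2 fold change -0.02, SE 0.06, limma adjusted p = 0.765). Its exons overlap those of ENOSF1 on the opposite strand, and the strand setting of the counts is not given in the sources used here.

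The E-type cyclins, which start S phase with CDK2, moved apart. CCNE1 was at 18.36, 15.97 and 16.88 FPKM in knockout libraries and at 12.2, 13.0 and 13.9 FPKM in WT libraries, a log2 fold change of 0.39 (SE 0.07, limma adjusted p = 0.00312). CCNE2 was at 3.11, 3.77 and 3.20 FPKM against 4.08, 5.83 and 4.62 FPKM, a log2 fold change of -0.50 (SE 0.14, limma adjusted p = 0.0165). Neither gene overlapped between the genotypes. CCNE1 kept its call after GC correction, at 0.42 (limma adjusted p = 0.00189), and CCNE2 did not, at -0.13 (limma adjusted p = 0.293). E2F1, the factor that transcribes many S phase genes, was at 45.3, 45.3 and 45.1 FPKM in knockout libraries and at 40.5, 34.2 and 34.2 FPKM in WT libraries, a log2 fold change of 0.32 (SE 0.07, limma adjusted p = 0.0055).

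Among G2/M genes, the cyclins and their kinase were either lower in knockout cells or did not pass. CDK1, the kinase that drives entry into mitosis, was at 22.6, 27.5 and 24.9 FPKM in knockout libraries and at 30.8, 40.4 and 35.1 FPKM in WT libraries, without overlap, a log2 fold change of -0.50 (SE 0.10, limma adjusted p = 0.00451). CCNA2, cyclin A, fell by 0.29 on the log2 scale (limma adjusted p = 0.0142), from 39.9 ± 3.61 to 32.7 ± 1.99 FPKM (SD, n = 3 each). With GC correction neither passed, at log2 fold changes of -0.13 for CDK1 (limma adjusted p = 0.122) and 0.01 for CCNA2 (limma adjusted p = 0.907). CCNB1, the main mitotic cyclin, had the smallest change of this role, at 124.6 to 135.5 FPKM in knockout and 118.5 to 130.7 FPKM in WT libraries (log2 fold change 0.07, SE 0.05, limma adjusted p = 0.294). Its GC-corrected value was 0.34 (limma adjusted p = 0.00865). CCNB2 and CDC25C, the phosphatase that activates CDK1, had log2 fold changes of -0.08 and 0.18 and did not pass, but CDC25C passed at 0.36 with GC correction (limma adjusted p = 0.00503) and at 0.31 with median scaling (limma adjusted p = 0.0153).

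Of the mitotic kinases, AURKB and PLK1 rose and AURKA did not pass. AURKB, the kinase of the chromosomal passenger complex, was at 116.3, 110.5 and 115.5 FPKM in knockout libraries and at 90.3, 81.5 and 83.7 FPKM in WT libraries, so that the lowest knockout library exceeded the highest WT library by more than the spread within a genotype. Its log2 fold change was 0.42 (SE 0.05, limma adjusted p = 3.37e-04). PLK1, the Polo-like kinase of mitotic entry, was at 125.9, 121.7 and 129.0 FPKM against 108.1, 99.2 and 95.3 FPKM, a log2 fold change of 0.32 (SE 0.05, limma adjusted p = 0.00184). BIRC5, or survivin, which sits in one complex with AURKB, rose in like manner, at 129.1, 124.7 and 131.2 FPKM against 113.0, 103.3 and 97.6 FPKM (log2 fold change 0.30, SE 0.06, limma adjusted p = 0.00331). These were the only 3 G2/M genes that passed as higher, and after GC correction they still passed, at log2 fold changes of 0.40 (AURKB), 0.26 (PLK1) and 0.34 (BIRC5). AURKA, which works at spindle poles, differed by 0.15 on the log2 scale (SE 0.06, limma adjusted p = 0.0782), and passed with GC correction, at 0.33 (limma adjusted p = 0.0042), and with median scaling, at 0.28 (limma adjusted p = 0.0219).

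BIRC5 was the one gene of the role of spindle checkpoint and anaphase that passed. CDC20, the activator of the anaphase-promoting complex, had the smallest change, at 129.96 to 142.35 FPKM in knockout and 124.0 to 147.1 FPKM in WT libraries (log2 fold change 0.03, SE 0.07, limma adjusted p = 0.779). The checkpoint kinases BUB1 and BUB1B had log2 fold changes of -0.10 and -0.15, and UBE2C, the ubiquitin-conjugating enzyme that works with the same complex, of 0.15, and none of them passed. With GC correction UBE2C passed at 0.25 (limma adjusted p = 0.0196) and BUB1 at 0.18 (limma adjusted p = 0.0112), the latter with the sign turned.

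The kinetochore and motor genes included the lowest values relative to WT. CENPE, a kinesin that moves chromosomes to the spindle equator, was at 2.18, 2.71 and 2.63 FPKM in knockout libraries and at 3.05, 4.72 and 3.75 FPKM in WT libraries, which did not overlap. Its log2 fold change was -0.58 (SE 0.16, 95% interval -0.94 to -0.22, limma adjusted p = 0.0168). CENPF, a protein of the outer kinetochore, was at 14.5, 16.8 and 15.3 FPKM against 16.2, 24.3 and 21.8 FPKM, which overlapped, at a log2 fold change of -0.40 (SE 0.13, limma adjusted p = 0.038). KIF11, the motor that pushes the spindle poles apart, fell by 0.31 on the log2 scale (limma adjusted p = 0.0253). All 3 had transcripts of 35.3% to 40.8% GC, and with GC correction none passed, at log2 fold changes of -0.20 (CENPE), -0.07 (CENPF) and 0.05 (KIF11). KIF20A, a motor of cytokinesis, had a log2 fold change of 0.12, and TPX2, which activates AURKA, had the smallest change of this role, at 83.0 to 86.0 FPKM in knockout and 84.1 to 88.7 FPKM in WT libraries (log2 fold change -0.02, SE 0.04, limma adjusted p = 0.76). With GC correction both passed, KIF20A at 0.26 (limma adjusted p = 0.013) and TPX2 at 0.16 (limma adjusted p = 0.027).

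MKI67, the proliferation antigen that coats mitotic chromosomes, was at 22.59, 24.69 and 22.02 FPKM in knockout libraries and at 27.3, 31.8 and 30.8 FPKM in WT libraries. The genotypes did not overlap, the log2 fold change was -0.37 (SE 0.07, limma adjusted p = 0.00338), and it stayed at -0.23 (limma adjusted p = 0.019) after GC correction. TOP2A, which untangles sister chromosomes, and FOXM1, the factor that transcribes G2/M genes, did not pass, with log2 fold changes of -0.18 (limma adjusted p = 0.07) and -0.11 (SE 0.05, limma adjusted p = 0.108). After GC correction TOP2A was at 0.17 (limma adjusted p = 0.00749), again with the opposite sign.

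The split of directions also depended on how libraries were scaled. Scaling each library to the same median moved the median log2 fold change of all genes by 0.11, from -0.09 to 0.02. With that scaling, 4 S phase genes passed as lower and 11 as higher, and 3 G2/M genes as lower and 7 as higher, where 16.5% of all genes passed as lower and 23.2% as higher. The medians became 0.12 for S phase and 0.06 for G2/M genes. Across the 17 alternatives run, 10 of the 46 genes passed in the same direction every time. The share of all genes tested that did so is not given here, so this count only describes the 46 genes. Of the 10 genes, 8 were higher in knockout cells, namely CDT1, MCM2, MCM5, GINS2, CCNE1, PLK1, AURKB and BIRC5, and MCM10 and MKI67 were lower.

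**Figure D3:**
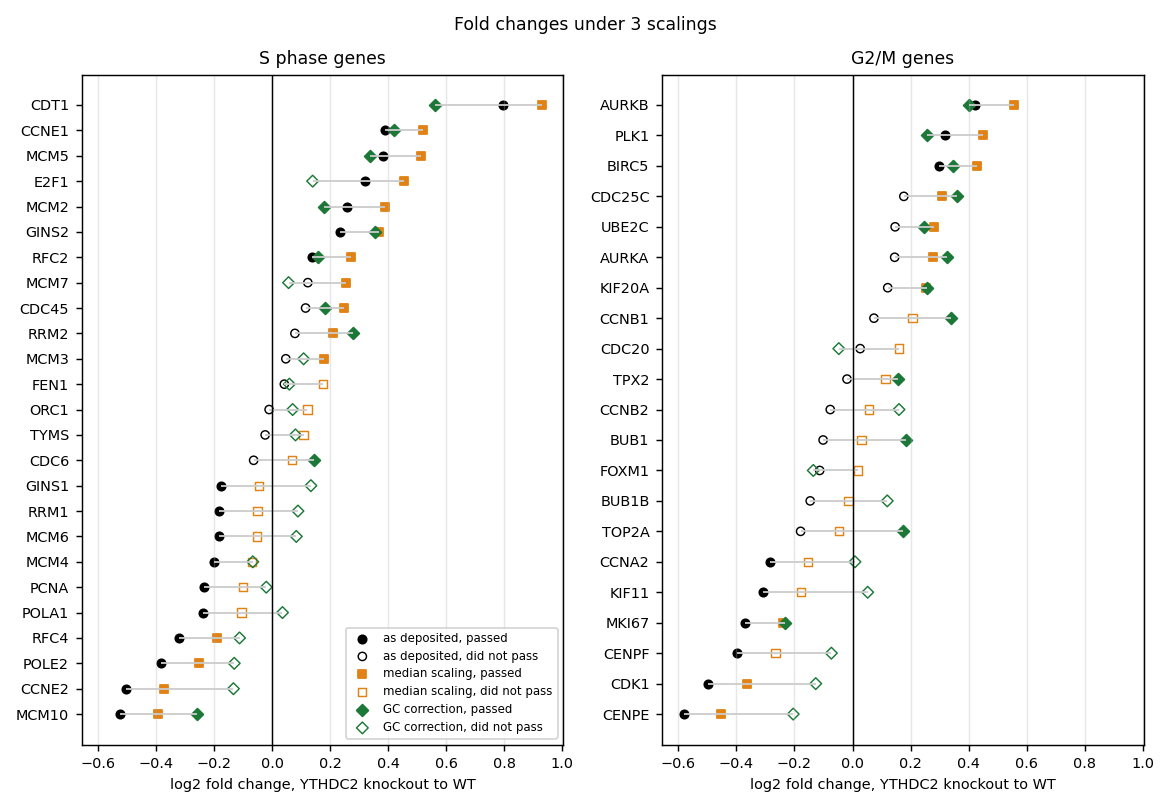
Log2 fold change (knockout to WT) of each gene as deposited (circles), with median scaling (squares) and with GC correction (diamonds), filled where the gene passed in limma and open where it did not. Squares lie to the right of the circles, and so do the diamonds of the genes with negative values as deposited except FOXM1, whereas the diamond of CDT1 lies to the left, at 0.56 against 0.80.

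Ratios of partner genes within a library do not depend on its scaling, although they still carry the GC content of both genes. The 7 pairs were chosen with results known, so their ratios are a description with no test, and in the pairs whose knockout and WT values did not overlap the gene named first had the transcript of higher GC content. The widest shift was in the E-type cyclins. CCNE1 was 5.90, 4.24 and 5.27 times CCNE2 in knockout libraries and 2.99, 2.23 and 3.00 times in WT libraries, a difference of 0.91 on the log2 scale that was 0.55 with GC correction. Of the clamp loader subunits, RFC2 was 2.71, 2.44 and 2.72 times RFC4 in knockout libraries, against 1.94, 1.86 and 1.91 times in WT libraries (difference 0.46, GC-corrected 0.27). GINS2 exceeded GINS1 in each knockout library, at 1.11, 1.21 and 1.24 times, and was below it in each WT library, at 0.855, 0.934 and 0.878 times (difference 0.41, GC-corrected 0.22). AURKB over AURKA differed by 0.28 on the log2 scale, of which 0.07 remained with GC correction, and RRM2 over RRM1 by 0.26, with 0.19 remaining. The ratios of CCNB1 to CCNB2 and of BUB1 to BUB1B overlapped between the genotypes, with differences of 0.15 and 0.04 on the log2 scale.

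Other genes of the same processes again went both ways. In each fit counted below, the share of either list that passed as lower was above that of all genes. Of 50 further replication genes, 25 passed as lower (50%) and 10 as higher (20%), where 26.2% and 16.6% of all genes did, with a median log2 fold change of -0.20. After GC correction 10 passed as lower and 16 as higher (20% and 32%, against 16.2% and 20.9% of all genes). Median scaling gave 11 as lower (22%) and 14 as higher (28%), where 16.5% and 23.2% of all genes passed. With a mean of at least 1 FPKM required, 52% passed as lower and 20% as higher, against 34.2% and 23.0% of all genes. The largest change was in POLD1, the catalytic subunit of the lagging strand polymerase, which rose from 36.1 ± 2.45 to 70.6 ± 1.37 FPKM (SD, n = 3 each), a log2 fold change of 0.97 (SE 0.06, limma adjusted p = 1.78e-05). POLD4, a small subunit of the same polymerase, rose by 0.70, whereas CDC7, the kinase that fires origins, had a log2 fold change of -0.64 and MCM8, a helicase of recombination, of -0.58 (limma adjusted p of 0.00124 or less for all 3). After GC correction these genes still passed, with log2 fold changes of 0.73 for POLD1, 0.64 for POLD4, -0.29 for CDC7 and -0.28 for MCM8. POLD1 was under the fold threshold as deposited and above it with median scaling, at 1.10, and without WT replicate 3, at 1.02. Of 61 further mitosis genes, 30 passed as lower (49.2%) and 11 as higher (18.0%), with a median of -0.21. After GC correction these were 17 and 16 (27.9% and 26.2%), where 16.2% and 20.9% of all genes passed. Median scaling gave 23 as lower (37.7%) and 15 as higher (24.6%), where 16.5% and 23.2% of all genes passed. With a mean of at least 1 FPKM required, 54.1% of the further mitosis genes passed as lower and 19.7% as higher, against 34.2% and 23.0% of all genes. The 4 largest changes were all negative. SMC4, a condensin subunit, fell from 56.6 ± 11.3 to 30.6 ± 2.65 FPKM (SD, n = 3 each), a log2 fold change of -0.87 (SE 0.13, limma adjusted p = 8.02e-04). The motor KIF18A (-0.83), the guardian of centromere cohesion SGO2 (-0.72) and the spindle protein CKAP2L (-0.71) followed on the same log2 scale, with limma adjusted p of 0.0214 or less. After GC correction SMC4 (-0.50), KIF18A (-0.46) and CKAP2L (-0.38) still passed and SGO2 did not, at -0.35 (limma adjusted p = 0.11). SGO2 also did not pass without knockout replicate 1, WT replicate 2 or WT replicate 3 (limma adjusted p = 0.0501 without the last).

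Of 33 genes that control the cell cycle, 13 passed as lower (39.4%) and 8 as higher (24.2%), and 2 were called at both thresholds, where 26.2%, 16.6% and 2.72% of all genes tested were. Their median log2 fold change was -0.09. After GC correction 9 passed as lower (27.3%) and 7 as higher (21.2%), where 16.2% and 20.9% of all genes passed. With a mean of at least 1 FPKM required, 42.4% passed as lower and 27.3% as higher, against 34.2% and 23.0% of all genes. CDKN1A, or p21, an inhibitor of cyclin-dependent kinases that also binds PCNA, was at 28.32, 29.32 and 28.02 FPKM in knockout libraries and at 71.6, 63.2 and 57.9 FPKM in WT libraries. Each WT library was thus above every knockout library, and the log2 fold change was -1.16 (SE 0.07, limma adjusted p = 2.32e-05), a call made in all 17 alternatives. CDKN1C, or p57, an inhibitor of the same family, went the other way, from 2.13 ± 0.438 to 4.81 ± 0.385 FPKM (SD, n = 3 each), a log2 fold change of 1.15 (SE 0.14, limma adjusted p = 3.94e-04). CDKN1C was under the fold threshold with GC correction, at 0.94, and with a pseudocount of 1, at 0.90. LIN52, a subunit of the DREAM complex, fell by 0.70 on the log2 scale (limma adjusted p = 3.71e-04) and was at -0.44 after GC correction, and CCND2, cyclin D2, rose by 0.69 (limma adjusted p = 5.90e-04).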

How the data were processed

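RNA from H1975 cells was extracted with TRIzol and made into libraries with a VAHTS kit, 3 labelled YTHDC2 knockout and 3 WT. The authors deposited FPKM values of 16760 genes per library, and the submitters' processing notes name GRCh38.p13. For the aligner, counter, strand setting and filter, nothing is given in the sources used here. All 46 genes passed the filter used here, a value above 0 FPKM in at least 3 libraries. Genes were tested with limma 3.58.1 (R 4.3.3, trend and robust moderation) on log2(FPKM + 0.1), and fold changes are on that scale. Thresholds (adjusted p under 0.05, absolute log2 fold change above 1) are those the study states in its results. Whole fragments were recovered from the steps between FPKM values (tolerance 0.02). GC content came from GENCODE 29, in which 99.07% of genes matched, and the correction subtracted a lowess curve (span 0.3) per library. The genes and lists were chosen with earlier results of these data known. Full statistics were given for the members with the largest and smallest absolute fold change in each role, for up to 4 passed genes with the largest fold change in each further list, and for YTHDC2 and CDKN1A. Other members described in full were chosen after their values were seen. The GC classes and the gene pairs were likewise chosen with results known.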

Additional observations from a re-analysis of the deposited data

How the results depend on the processing

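With quantile normalization 8 S phase and 4 G2/M genes passed as lower, as did 20.8% of all genes, and GINS1, POLA1, CENPF and KIF11 were the calls lost. With pseudocounts of 0.01 and 1, no filter, a mean of at least 1 FPKM or voom on recovered fragments, 10 S phase and 5 to 7 G2/M genes passed as lower and 7 to 8 and 3 as higher. In those fits 23.2% to 34.2% of all genes passed as lower and 14.8% to 23.0% as higher, from no filter to a mean of at least 1 FPKM. With median scaling, 4 S phase genes passed as lower and 11 as higher, 3 G2/M genes passed as lower and 7 as higher, and the median log2 fold changes were 0.12 (S phase) and 0.0557 (G2/M). With GC correction, 1 S phase gene and 1 G2/M gene passed as lower, 11 G2/M genes passed as higher, and the medians were 0.0885 and 0.16. With FPKM rescaled to a common total the medians were -0.0751 and -0.14, and without trend and robust moderation 3 G2/M genes passed as lower. Leaving out each library in turn gave 2 to 8 G2/M genes that passed as lower and 3 to 5 as higher, and medians of -0.0279 to 0.0221 for S phase and -0.0866 to -0.0412 for G2/M genes. In the same fits 19.6% to 28.8% of all genes passed as lower and 12.8% to 18.0% as higher. The sign turned in at least 1 alternative for 18 of the 46 genes, and with GC correction for 15. Where the gene passed before or after the turn, the alternative was GC correction in each case, namely for CDC6 (0.14), MCM6 (0.0829), GINS1 (0.13), POLA1 (0.0353), RRM1 (0.0885), CCNA2 (0.00833), BUB1 (0.18), KIF11 (0.0522), TPX2 (0.16) and TOP2A (0.17). The cause of these changes was not tested. Over all genes, libraries with the same replicate number did not deviate together (correlations 0.0762, 0.0186 and -0.0239). The labels do not say whether the numbers pair the libraries, and such correlations cannot exclude a pairing that acts on some genes only. A fit with the replicate number as a block gave 10 lower and 7 higher S phase genes and 7 lower and 4 higher G2/M genes (27.4% and 17.1% of all genes). Counting error alone, from the fragments per library, gave an SE of 0.00726 to 0.0541 on the log2 scale, which was 0.111 to 0.606 of the SE of the same gene in limma.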
